A study of Mus musculus with 6 samples.

Results

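Tumour cells carry surface and secreted molecules that dampen immune attack, and 10 genes for such molecules were followed in mouse Lewis lung carcinoma cells whose guide RNA was directed against the Notch ligand gene Jag2. The 10 genes were listed by symbol, with earlier results of these data known, and each symbol matched 1 of the 55334 gene IDs of the deposited count table. They are the B7 family ligand genes Cd274, Pdcd1lg2 and Cd276, the galectin genes Lgals9 and Lgals1, the genes Cd47 and Cd200 for ligands of inhibitory myeloid receptors, the ectoenzyme gene Nt5e, the TNF family ligand gene Tnfsf9 and the cyclooxygenase gene Ptgs2. All cells expressed green fluorescent protein (GFP), and they carried the Jag2 guide RNA (JAG2KO, 3 libraries) or a scrambled guide RNA (Scramble, 3 libraries). Per the labels, both groups of cells were grown as tumours in the flanks of mice, and at endpoint GFP-positive, CD45-negative, DAPI-negative cells were sorted for RNA sequencing. The labels give no age or strain of the mice, no treatment, no time of the endpoint, and no statement on whether each group is 1 clone or a pool of edited cells or whether each library is 1 mouse, so p-values rest on the spread among these libraries, part or all of which may be technical. The JAG2KO libraries are called by their column names JagKO2, JagKO3 and JagKO4, which carry other numbers than the sample titles.

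Checkpoint ligands act by binding inhibitory receptors on other cells. PD-L1 (Cd274) and PD-L2 (Pdcd1lg2) bind PD-1 on T cells, CD47 binds SIRPa on macrophages and CD200 binds the CD200 receptor on myeloid cells. Galectin-9 and galectin-1 bind glycans on immune cell receptors, CD73 (Nt5e) makes adenosine from AMP outside the cell, and COX-2 (Ptgs2) makes the precursor of prostaglandin E2. B7-H3 (Cd276) is a B7 family protein abundant on many tumours, whereas 4-1BBL (Tnfsf9) differs from the others in that it costimulates T cells through 4-1BB.

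Libraries held 37036772 to 42914376 counts in JAG2KO and 39448304 to 43907690 counts in Scramble. Values are CPM, the counts scaled to library sizes adjusted by TMM factors, and differences were tested with edgeR's quasi-likelihood test over 16049 genes, called at a Benjamini-Hochberg adjusted p under 0.05. Of all tested genes, 11.8% were called higher in JAG2KO and 12.5% lower, which is the background of the marker counts below. Jag2 itself, the targeted gene, had 19, 30 and 48 counts in JagKO2, JagKO3 and JagKO4, against 67, 48 and 40 counts in Scramble replicates 1, 2 and 3, with a log2 fold change of -0.58 (edgeR adjusted p = 0.318). Of the lung epithelial markers Nkx2-1, Sftpc, Sftpb, Napsa, Epcam, Cdh1, Krt8, Krt18 and Krt19, Nkx2-1 and Sftpb were at 0 counts in every library, 5 were tested, and 0 were higher and 2 lower. The 9 summed to 284 to 339 CPM in JAG2KO and 390.5 to 400 CPM in Scramble. The keratin gene Krt8 fell to 4.13 ± 0.84 CPM in JAG2KO, against 124 ± 4.6 CPM in Scramble (log2 fold change -4.90, edgeR adjusted p = 1.7e-10), Krt19 had a log2 fold change of -1.55 (edgeR adjusted p = 0.0117), and Krt18 averaged 307 CPM in JAG2KO and 268 CPM in Scramble and was not called. Macrophage and monocyte markers (12 genes) summed to 85.2 to 103 CPM in JAG2KO and 46.9 to 57.1 CPM in Scramble, and 4 of 12 were called higher and 0 lower. Endothelial markers (8 genes) summed to 36.6 to 53.4 CPM in JAG2KO and 20.9 to 24.9 CPM in Scramble, with 5 of 8 called higher and 0 lower. Pan-leukocyte markers (4 genes, Ptprc for CD45 among them) summed to 11.6 to 13.7 CPM in JAG2KO and 8.93 to 9.95 CPM in Scramble, with 0 of 4 called, and none of these 3 marker lists had a member at 0 in every library. Fibroblast and pericyte markers (8 genes) summed to 875 to 1304 CPM in JAG2KO and 745 to 889 CPM in Scramble, with 3 called higher, 1 lower and 0 at 0 counts, and dendritic cell markers (7 genes, 5 tested, 0 at 0 counts) summed to 22.8 to 24.7 CPM in JAG2KO and 17.2 to 21.7 CPM in Scramble, with 0 called. Neutrophil markers (5 genes, 2 tested) summed to 0.541 to 1.73 CPM in JAG2KO and 1.35 to 3.36 CPM in Scramble. T and NK cell markers (8 genes, 2 tested) summed to 0.808 to 2.74 CPM in JAG2KO and 1.08 to 1.56 CPM in Scramble. In both lists 0 of the tested markers were called and 0 markers were at 0 counts in every library.

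Promoter windows from RefSeq (GRCm38.p6), which run from 250 bases before the start site to 50 bases after it, were available for 8 of the 10 genes. They were searched on both strands for the interferon-stimulated response element (ISRE) core, a pair of GAAA with any 2 bases between them, the interferon-gamma activated site TTCNNNGAA, the RBPJ core TGGGAA of Notch-dependent transcription, the AP-1 site TGANTCA, the cyclic AMP response element TGACGTCA and the hypoxia element ACGTG. The stretch from 250 bases before to 30 bases after the start site is shown for the called genes Cd276, Lgals9 and Ptgs2, for Cd200, which holds the RBPJ core, and for Cd274, the best known of the ligands, with every motif match in capitals and each sequence read along the gene's own strand. The Cd276 stretch lies at chr9:58555004-58555283 (minus strand), that of Lgals9 at chr11:78984895-78985174 (minus), of Ptgs2 at chr1:150099781-150100060 (plus), of Cd200 at chr16:45409024-45409303 (minus) and of Cd274 at chr19:29367188-29367467 (plus).
Cd276: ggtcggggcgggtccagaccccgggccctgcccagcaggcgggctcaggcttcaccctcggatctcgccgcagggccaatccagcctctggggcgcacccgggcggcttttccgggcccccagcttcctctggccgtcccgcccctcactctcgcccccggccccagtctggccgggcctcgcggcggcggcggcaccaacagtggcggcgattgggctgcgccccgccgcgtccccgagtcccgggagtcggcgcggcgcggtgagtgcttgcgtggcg
Lgals9: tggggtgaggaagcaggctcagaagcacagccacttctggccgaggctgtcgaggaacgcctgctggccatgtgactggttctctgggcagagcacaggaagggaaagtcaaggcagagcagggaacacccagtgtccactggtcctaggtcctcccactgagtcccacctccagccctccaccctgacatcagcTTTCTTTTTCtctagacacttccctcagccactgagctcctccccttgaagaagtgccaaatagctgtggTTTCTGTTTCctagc
Ptgs2: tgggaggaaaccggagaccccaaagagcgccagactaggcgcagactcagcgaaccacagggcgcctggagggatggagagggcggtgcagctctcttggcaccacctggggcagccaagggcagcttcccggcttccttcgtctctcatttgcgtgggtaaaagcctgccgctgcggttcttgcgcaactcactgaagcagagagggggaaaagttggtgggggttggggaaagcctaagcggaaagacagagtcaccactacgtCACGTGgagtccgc
Cd200: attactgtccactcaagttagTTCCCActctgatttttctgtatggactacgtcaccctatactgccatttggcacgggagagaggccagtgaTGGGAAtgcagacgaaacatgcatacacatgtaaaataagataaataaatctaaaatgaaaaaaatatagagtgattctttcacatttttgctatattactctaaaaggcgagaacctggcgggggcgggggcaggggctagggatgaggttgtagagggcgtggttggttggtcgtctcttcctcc
Cd274: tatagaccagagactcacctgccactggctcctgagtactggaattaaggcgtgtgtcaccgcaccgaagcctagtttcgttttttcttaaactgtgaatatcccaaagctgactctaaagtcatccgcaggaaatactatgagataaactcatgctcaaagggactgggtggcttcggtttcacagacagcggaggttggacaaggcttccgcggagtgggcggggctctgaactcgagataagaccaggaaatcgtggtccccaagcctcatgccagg
Lgals9 had 2 ISRE cores, both on the opposite strand, at -55 and 16 from the start site, and 3.43% of 32817 promoter windows hold at least 1. Cd200 had 2 RBPJ cores, at -229 and -157, a motif held by 25.6% of windows. Ptgs2 had the hypoxia element on both strands in 1 overlapping place, the palindrome that starts 17 bases after the start site, and Cd274 had 1 at position 40, outside the printed stretch, and 19.6% of windows hold that motif. The Cd47 windows, a pair that overlap, also held the hypoxia element, and no listed motif was found in the windows of Cd276, Nt5e and Pdcd1lg2. The interferon-gamma activated site, the AP-1 site and the cyclic AMP element, held by 8.29%, 7.81% and 1.79% of windows, were in none of the 8 genes' windows. RefSeq start sites can differ from the GENCODE gene coordinates given with each gene, and the windows of Cd276, Cd47 and Nt5e lie wholly inside the GENCODE gene. These matches describe letters in a window and were not tested for use.

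Of the 10 genes, 9 had enough counts to be tested and 4 were called, each by less than 2-fold. Cd276 and Lgals9 were higher in JAG2KO and Tnfsf9 and Ptgs2 lower, while Cd274, Lgals1, Cd47, Cd200 and Nt5e did not pass the threshold. The 4 called genes stand against a background of 24.3% of all tested genes called in either direction (11.8% higher and 12.5% lower), which is also the background of the pathway list counts given later. With 9 tested genes this count is not read as particular to them. The median log2 fold change of the 9 genes was 0.07, beside 0.002 over all tested genes. The CPM values of the groups did not overlap for 5 of the 9, against 40.3% of all tested genes.

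**Figure D1:**
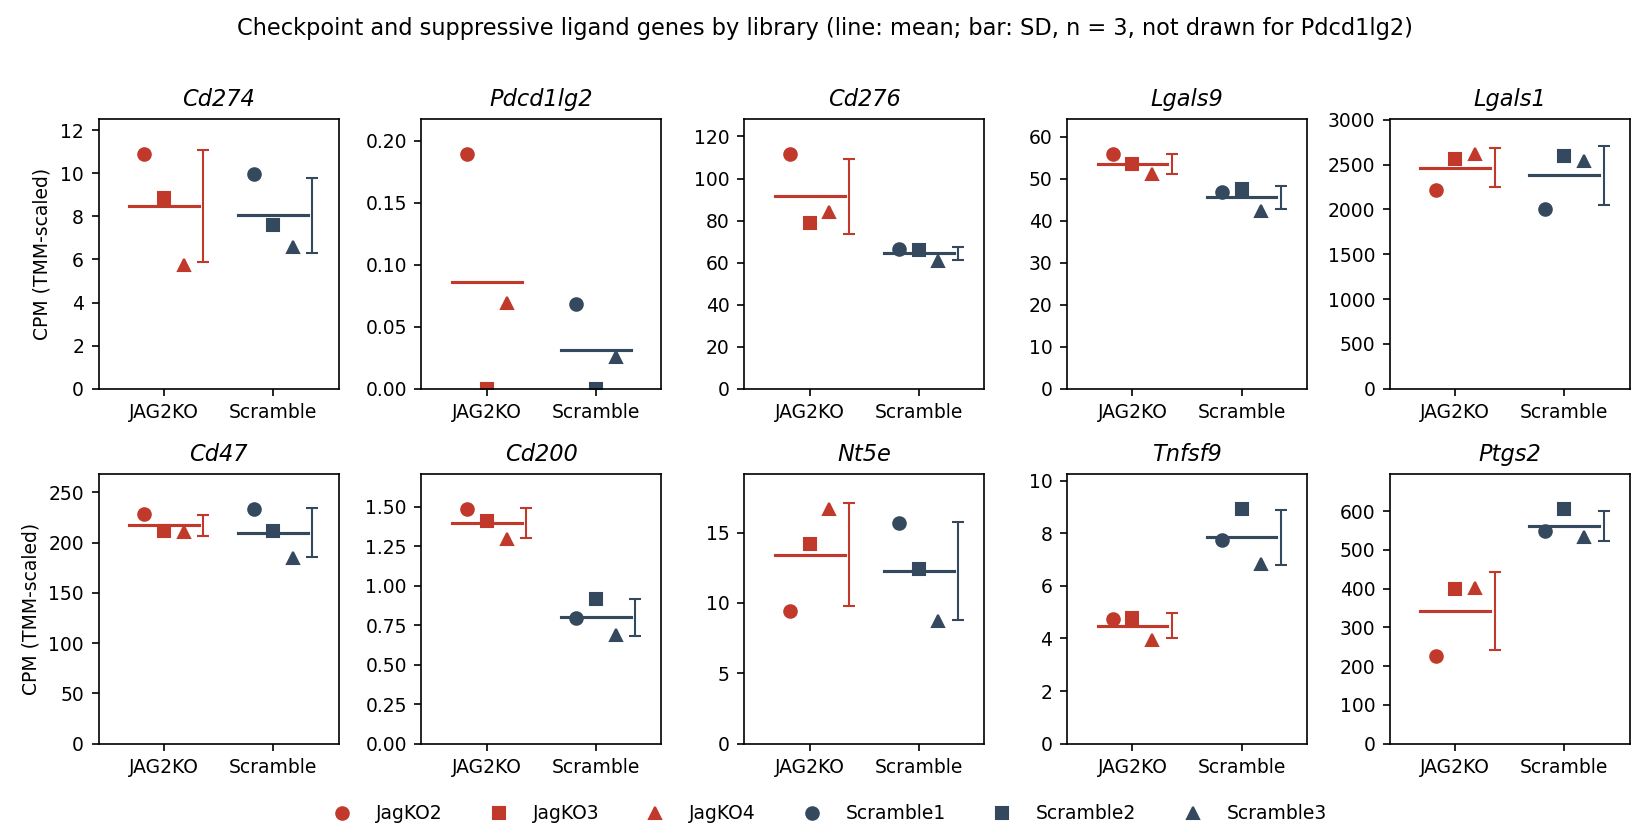
CPM (TMM-scaled, linear axes from 0) of the 10 genes in every library, JAG2KO left and Scramble right. The group mean is a line and the SD a bar (n = 3), with no bar for the untested Pdcd1lg2. The groups lie apart for Cd276, Lgals9, Cd200, Tnfsf9 and Ptgs2, and JagKO2 has the lowest Ptgs2 value (226 CPM) and the highest Cd276 value (112 CPM) of its group.

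Per kilobase of exon, the scale on which levels of different genes can be set side by side, the order of the 10 genes was the same in both groups. Lgals1 stood first, with 2731 ± 237 CPM per kb in JAG2KO and 2635 ± 364 in Scramble (SD, n = 3 each). Ptgs2 followed with 74.9 ± 22.1 CPM per kb in JAG2KO and 123 ± 8.4 in Scramble, and Cd47 with 34.6 ± 1.61 in JAG2KO and 33.4 ± 3.9 in Scramble. Then came Lgals9, Cd276, Tnfsf9, Cd274, Nt5e, Cd200 and Pdcd1lg2, the last with 0.0439 CPM per kb in JAG2KO and 0.0159 in Scramble. The libraries of neighbours in this order overlapped for Cd274 and Nt5e in both groups, and for Lgals9 and Cd276 in JAG2KO (25 ± 1.11 and 25 ± 4.84 CPM per kb), where those ranks cannot be told apart by their spread.

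Among the B7 ligands, Cd276 rose and Cd274 showed no detectable difference. Cd276 (ENSMUSG00000035914.11, chromosome 9, 58524298 to 58555437, minus strand, GRCm38) had 112, 78.6 and 84.2 CPM in JagKO2, JagKO3 and JagKO4, against 66.4, 65.9 and 60.9 CPM in Scramble replicates 1, 2 and 3. Each JAG2KO library lay above each Scramble library, JagKO2 farthest. Its log2 fold change was 0.51 (SE 0.11, adjusted p = 0.00623 by edgeR), or 1.42-fold with a 95% interval of 1.2 to 1.68, and without JagKO2 it was 0.34 (edgeR adjusted p = 0.00387). Fibroblast and pericyte markers, of which 3 of 8 were called higher, 1 lower and 0 were at 0 counts, summed to 1304, 916 and 875 CPM in JagKO2, JagKO3 and JagKO4, against 889, 820 and 745 CPM in Scramble replicates 1, 2 and 3. Among them Pdgfrb rose to 54.5, 41.3 and 47.1 CPM in JagKO2, JagKO3 and JagKO4, against 28.9, 28.9 and 22.8 CPM in Scramble replicates 1, 2 and 3, and Rgs5 to 38.6, 21.2 and 27.2 CPM, against 8.64, 6.03 and 7.97 CPM. Both, singled out after their values were seen, stood in the same order over the JAG2KO libraries as Cd276. So did Pdgfra and Cspg4, which were not called, Postn, which was called higher, and Fap, which was called lower. This order was therefore not particular to the markers that rose. Dcn and Lum, the most abundant of the 8 and not called, were instead lowest in JagKO4, as was the sum. Fap, the marker called lower, had 3.61 ± 1.14 CPM in JAG2KO, against 19.0 ± 1.1 CPM in Scramble (log2 fold change -2.40). The part of these markers in the Cd276 level was not tested. An opposite-strand gene model, Gm10657, shares 416 exon bases with Cd276 but had 1 to 26 counts per library, against 2393 to 4131 for Cd276.

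Cd274 (ENSMUSG00000016496.7, chromosome 19, 29367455 to 29388095, plus strand) measured 10.9, 8.84 and 5.75 CPM in JagKO2, JagKO3 and JagKO4, against 9.97, 7.62 and 6.57 CPM in Scramble replicates 1, 2 and 3. The libraries of both groups covered the same range, and the spread within a group was from 5.75 to 10.9 CPM in JAG2KO, wider than the step between group means. The log2 fold change was 0.07 (SE 0.23, adjusted p = 0.853 by edgeR), with a 95% interval from 0.747-fold to 1.48-fold, so a 2-fold change in either direction lies outside it. The antisense gene AC119228.1 shares 511 exon bases with Cd274 and had 8 to 36 counts per library in JAG2KO and 19 to 32 in Scramble, against 249 to 403 and 258 to 440 for Cd274. Pdcd1lg2 (ENSMUSG00000016498.10, chromosome 19, 29410919 to 29471161, plus strand), which starts 22.8 kb beyond the end of Cd274 on the same chromosome, had 7, 0 and 3 counts in JagKO2, JagKO3 and JagKO4, against 3, 0 and 1 in Scramble replicates 1, 2 and 3. With 10 and 4 counts over the groups it fell under the filter on low counts and was not tested, and PD-L2 RNA was near the limit of detection in these cells.

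Of 9 further genes on the B7 family list, 4 were tested, 1 was higher, 0 were lower and 3 did not pass, and 5 were too low to test. The gene that passed was Vsir, which encodes the checkpoint protein VISTA, known mainly from myeloid cells. It had 9.49, 6.23 and 6.95 CPM in JagKO2, JagKO3 and JagKO4, against 5.92, 4.34 and 3.41 CPM in Scramble replicates 1, 2 and 3, a log2 fold change of 0.73 (SE 0.23, adjusted p = 0.0364 by edgeR). Its call ended without Scramble replicate 2, Scramble replicate 3, JagKO2 or JagKO4 (edgeR adjusted p from 0.0658 to 0.13). In the same libraries the macrophage and monocyte markers summed to 97.1 ± 10.3 CPM in JAG2KO and 52.8 ± 5.26 CPM in Scramble, and their part in the Vsir level was not tested. In bulk RNA, fewer or more cells of a type cannot be told apart from less or more RNA per cell.

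Genes that act upstream of Cd274 differed in both directions. On the list of PD-L1 regulators, 12 genes were tested, of which 4 rose, 1 fell and 7 did not pass, with a median log2 fold change of 0.11, and without Scramble replicate 1 or Scramble replicate 2 the higher count was 2. Irf1, the transcription factor through which interferon-gamma raises PD-L1, had 351, 405 and 311 CPM in JagKO2, JagKO3 and JagKO4, against 241, 272 and 265 CPM in Scramble replicates 1, 2 and 3 (log2 fold change 0.46, edgeR adjusted p = 0.0032). The interferon-gamma receptor gene Ifngr1 rose to 69.2 ± 1.83 CPM in JAG2KO, against 52.8 ± 4.67 CPM in Scramble (edgeR adjusted p = 0.00345). Jak2, a kinase of that receptor whose gene ends 54.4 kb before Cd274, fell to 44.6 ± 0.898 CPM in JAG2KO, against 60 ± 1.98 CPM in Scramble, a log2 fold change of -0.43 (edgeR adjusted p = 0.000792). Cmtm6 and Cmtm4, which stabilise the PD-L1 protein, had log2 fold changes of 0.08 and 0.15 and did not pass (edgeR adjusted p = 0.496 and 0.16).

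Of the galectins, Lgals9 was slightly higher and Lgals1, the most abundant of the 10 genes, did not pass. Lgals9 (ENSMUSG00000001123.15, chromosome 11, 78962974 to 78984946, minus strand) had 55.9, 53.5 and 51.1 CPM in JagKO2, JagKO3 and JagKO4, against 46.7, 47.5 and 42.3 CPM in Scramble replicates 1, 2 and 3. The groups did not overlap, but the step was small, with a log2 fold change of 0.23 (SE 0.08, adjusted p = 0.0438 by edgeR), or 1.17-fold with a 95% interval of 1.05 to 1.32. The call ended without any 1 of the 6 libraries (adjusted p = 0.0633 to 0.167), while the direction held. Macrophage and monocyte marker sums moved the same way (85.2 to 103 CPM in JAG2KO and 46.9 to 57.1 CPM in Scramble), and their part in this small step was not tested.

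Lgals1 (ENSMUSG00000068220.6, chromosome 15, 78926725 to 78930465, plus strand) measured 2221, 2558 and 2619 CPM in JagKO2, JagKO3 and JagKO4, against 2002, 2593 and 2544 CPM in Scramble replicates 1, 2 and 3. The groups overlapped, with JagKO2 and Scramble replicate 1 the lowest of their groups. The log2 fold change was 0.05 (SE 0.10, adjusted p = 0.743 by edgeR), and the 95% interval ran from 0.897-fold to 1.2-fold. Of 8 further genes of the galectin list found in the table, 7 were tested, 0 were higher, 1 was lower and 6 did not pass. With DESeq2, with no filter, and without JagKO4 or Scramble replicate 2, 1 of the further galectin genes was called higher. Lgals7, singled out after its value was seen, had 97, 38 and 37 counts in JagKO2, JagKO3 and JagKO4, against 9, 37 and 10 in Scramble replicates 1, 2 and 3, a log2 fold change of 1.76 (SE 0.60) that did not pass (edgeR adjusted p = 0.0524). The gene that fell was Lgals3bp, whose secreted glycoprotein binds galectin-3 and which is also induced by interferon. It had 68.1, 46.2 and 45.9 CPM in JagKO2, JagKO3 and JagKO4, against 109, 121 and 95 CPM in Scramble replicates 1, 2 and 3, with a log2 fold change of -1.02 (SE 0.14, adjusted p = 0.000262 by edgeR). Lgals3, the gene for galectin-3, had a log2 fold change of 0.07 and did not pass (edgeR adjusted p = 0.518).

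The ligands of inhibitory myeloid receptors gave no call. Cd47 (ENSMUSG00000055447.19, chromosome 16, 49800533 to 49915010, plus strand) had 229, 212 and 211 CPM in JagKO2, JagKO3 and JagKO4, against 234, 211 and 185 CPM in Scramble replicates 1, 2 and 3, and the groups overlapped. Its log2 fold change of 0.05 (SE 0.08, adjusted p = 0.718 by edgeR) had a 95% interval from 0.913-fold to 1.17-fold. Cd200 (ENSMUSG00000022661.14, chromosome 16, 45382135 to 45409053, minus strand) was scarce, with 55, 53 and 56 counts in JagKO2, JagKO3 and JagKO4, against 35, 40 and 27 in Scramble replicates 1, 2 and 3. All 3 JAG2KO libraries lay above all 3 Scramble libraries, at 1.4 ± 0.0978 CPM in JAG2KO and 0.799 ± 0.115 CPM in Scramble. The log2 fold change of 0.80 (SE 0.33) was the largest positive value among the 9 tested genes but missed the threshold (edgeR unadjusted p = 0.0333, adjusted p = 0.103). Endothelial cells can express CD200, and endothelial markers summed to 45.8 ± 8.49 CPM in JAG2KO and 22.3 ± 2.26 CPM in Scramble, a difference whose part in the Cd200 level was not tested.

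**Figure D2:**
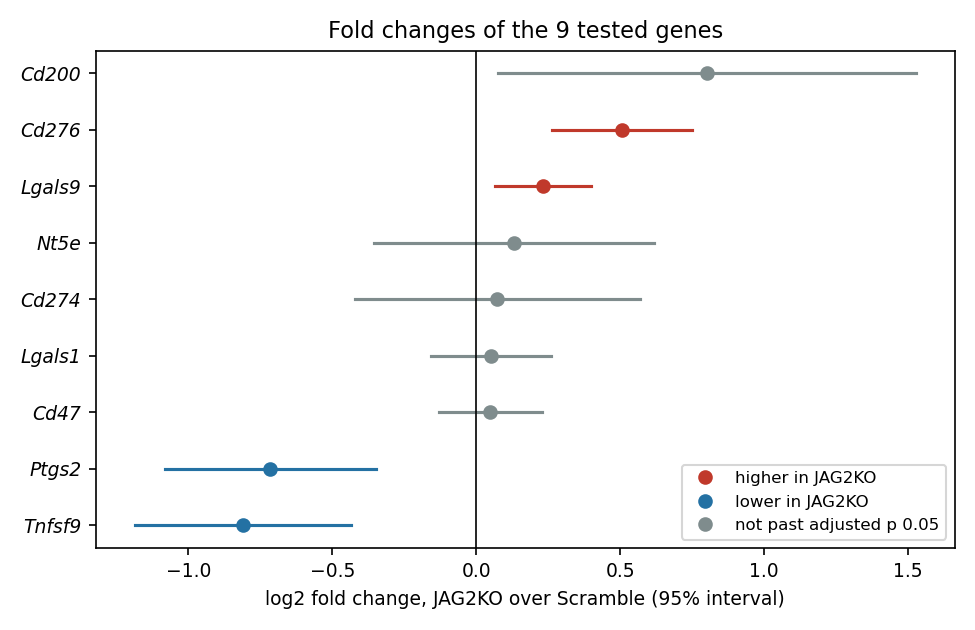
Log2 fold changes (JAG2KO over Scramble) of the 9 tested genes from edgeR, as points with 95% intervals as lines, coloured by call. Cd200 has the widest interval, from 0.07 to 1.53, and Cd47 and Lgals1 have narrow ones around 0.

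The list of inhibitory ligands of NK and myeloid receptors also holds adhesion genes and enzymes that act on such ligands. Of its 11 further genes, 9 were tested, with 0 higher, 3 lower and 6 without a call (12.5% of all tested genes were lower), and without JagKO2 the higher count was 1. Nectin3, an adhesion gene of the nectin family, had 40.4, 36.6 and 38.3 CPM in JagKO2, JagKO3 and JagKO4, against 52.7, 52.8 and 60.5 CPM in Scramble replicates 1, 2 and 3 (log2 fold change -0.53, edgeR adjusted p = 0.000685). H2-T23, which encodes the Qa-1 molecule read by the inhibitory NKG2A receptor, fell to 42.2 ± 11.1 CPM in JAG2KO, against 65 ± 5.93 CPM in Scramble (log2 fold change -0.63, edgeR adjusted p = 0.00858), though genes of the H2 family have close copies that can share reads. Qpctl, whose enzyme modifies CD47 so that SIRPa can bind it, averaged 10.8 ± 1.24 CPM in JAG2KO and 14.1 ± 1.14 CPM in Scramble (log2 fold change -0.38, edgeR adjusted p = 0.0499). The Qpctl call ended with RLE factors, library totals alone, no filter, the stricter filter or limma-voom, and without any 1 library other than JagKO4 (adjusted p = 0.0521 to 0.165).

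Nt5e, the gene for CD73, varied more within groups than between them. This gene (ENSMUSG00000032420.8, chromosome 9, 88327197 to 88372092, plus strand) had 9.46, 14.2 and 16.7 CPM in JagKO2, JagKO3 and JagKO4, against 15.7, 12.4 and 8.73 CPM in Scramble replicates 1, 2 and 3. Its log2 fold change was 0.13 (SE 0.22, adjusted p = 0.718 by edgeR), with a 95% interval from 0.782-fold to 1.53-fold. The genes around it in nucleotide and adenosine handling had calls in both directions: of 12 further tested genes, 3 were higher, 6 lower and 3 without a call, with a median log2 fold change of -0.31, beside 11.8% higher and 12.5% lower among all tested genes. With any 1 library left out, 2 to 3 genes of this list were higher and 4 to 5 lower. Entpd2, an ectoenzyme that removes phosphate from extracellular ATP, had 3.87, 3.33 and 3.42 CPM in JagKO2, JagKO3 and JagKO4, against 1.11, 0.826 and 0.687 CPM in Scramble replicates 1, 2 and 3, a log2 fold change of 2.01 (SE 0.28, adjusted p = 0.00027 by edgeR). Enpp1, which also cleaves extracellular nucleotides, fell to 1.48 ± 0.249 CPM in JAG2KO, against 3.74 ± 0.594 CPM in Scramble (log2 fold change -1.33, edgeR adjusted p = 0.00233). The ectoenzyme gene Cd38, which acts on NAD, fell to 10.4 ± 1.86 CPM in JAG2KO, against 17.8 ± 2.11 CPM in Scramble (log2 fold change -0.77, edgeR adjusted p = 0.00261). Entpd1, the gene for CD39, which feeds AMP to CD73, averaged 3.37 CPM in JAG2KO and 3.62 CPM in Scramble and did not pass (edgeR adjusted p = 0.778).

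Tnfsf9 fell. The gene (ENSMUSG00000035678.8, chromosome 17, 57105325 to 57107757, plus strand) had 4.73, 4.76 and 3.92 CPM in JagKO2, JagKO3 and JagKO4, against 7.75, 8.92 and 6.85 CPM in Scramble replicates 1, 2 and 3. Every JAG2KO library lay below every Scramble library. The log2 fold change was -0.81 (SE 0.17, adjusted p = 0.00493 by edgeR), or 0.57-fold in JAG2KO over Scramble with a 95% interval of 0.44 to 0.739, and the call held in every alternative run (adjusted p up to 0.0349). The long noncoding gene Gm11110 shares 192 exon bases with it on the opposite strand and had 70 to 119 counts per library in JAG2KO and 89 to 141 in Scramble, against 170 to 179 and 269 to 389 for Tnfsf9. No source used here says whether counting used strand, so part of the reads could belong to either gene. Its receptor gene Tnfrsf9, for 4-1BB, averaged 17.4 CPM in JAG2KO and 14.1 CPM in Scramble and did not pass (edgeR adjusted p = 0.157).

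The TNF superfamily otherwise held 1 call in each direction among 7 further tested genes, 5 did not pass and 9 were too low to test, Cd70 (38.2 kb from Tnfsf9) with no count in any library. Tnfsf11, the gene for RANKL, fell to 0, 9 and 6 counts in JagKO2, JagKO3 and JagKO4, against 136, 123 and 88 in Scramble replicates 1, 2 and 3 (log2 fold change -4.39, edgeR adjusted p = 0.00021). Without JagKO3 its log2 fold change was -5.15, and with limma-voom -5.05. Tnf itself had 26, 31 and 46 counts in JagKO2, JagKO3 and JagKO4, against 2, 2 and 6 in Scramble replicates 1, 2 and 3 (log2 fold change 3.39, edgeR adjusted p = 0.00192), and 4.15 without Scramble replicate 3. The Tnf level stayed low, at 0.863 CPM in JAG2KO and 0.0813 CPM in Scramble, and the part in it of the macrophage and monocyte markers (97.1 ± 10.3 CPM in JAG2KO and 52.8 ± 5.26 CPM in Scramble) was not tested. Without Scramble replicate 2 the higher count of the family was 2, and with the stricter low-count filter, under which Tnf is not tested, it was 0.

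Ptgs2 fell, and so did Ptgs1, the other cyclooxygenase gene, and Pla2g4a, which supplies the substrate of both enzymes. The gene (ENSMUSG00000032487.8, chromosome 1, 150100031 to 150108227, plus strand) had 226, 400.4 and 402 CPM in JagKO2, JagKO3 and JagKO4, against 549.9, 606 and 532 CPM in Scramble replicates 1, 2 and 3. Every JAG2KO library lay below every Scramble library, JagKO2 farthest. The log2 fold change was -0.71 (SE 0.17, adjusted p = 0.00882 by edgeR), or 0.609-fold in JAG2KO over Scramble with a 95% interval of 0.473 to 0.785. Without JagKO2 the log2 fold change was -0.49 and the call was kept (edgeR adjusted p = 0.000119). JagKO2 also had the highest fibroblast and pericyte sum (1304 CPM), whose part in the Ptgs2 level was not tested.

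Pla2g4a, whose phospholipase releases the arachidonic acid that cyclooxygenases use, had 44.4, 45.9 and 48.1 CPM in JagKO2, JagKO3 and JagKO4, against 75.1, 73.5 and 69.5 CPM in Scramble replicates 1, 2 and 3, a log2 fold change of -0.66 (SE 0.07, adjusted p = 3.8e-05 by edgeR). Ptgs1, the gene for COX-1, had 112, 93.2 and 93.5 CPM in JagKO2, JagKO3 and JagKO4, against 187, 185 and 172 CPM in Scramble replicates 1, 2 and 3, a log2 fold change of -0.86 (SE 0.08, adjusted p = 1.4e-05 by edgeR). Both genes held their groups clearly apart, with a smaller spread than Ptgs2. Of 13 further tested genes of prostaglandin synthesis, transport and response, 1 was higher, 3 lower and 9 without a call, and their median log2 fold change was 0.05. The terminal synthase gene Ptges averaged 395 CPM in JAG2KO and 433 CPM in Scramble and did not pass (edgeR adjusted p = 0.313). Abcc4, a transporter that can export prostaglandins, rose to 63.3 ± 1.01 CPM in JAG2KO, against 52.7 ± 5.05 CPM in Scramble (log2 fold change 0.26, edgeR adjusted p = 0.0303), and lost its call without JagKO3, JagKO4, Scramble replicate 1 or Scramble replicate 3 (edgeR adjusted p from 0.0735 to 0.11). The prostaglandin receptor genes Ptger1 and Ptger4 were below 1 CPM in both groups and did not pass.

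**Figure D3:**
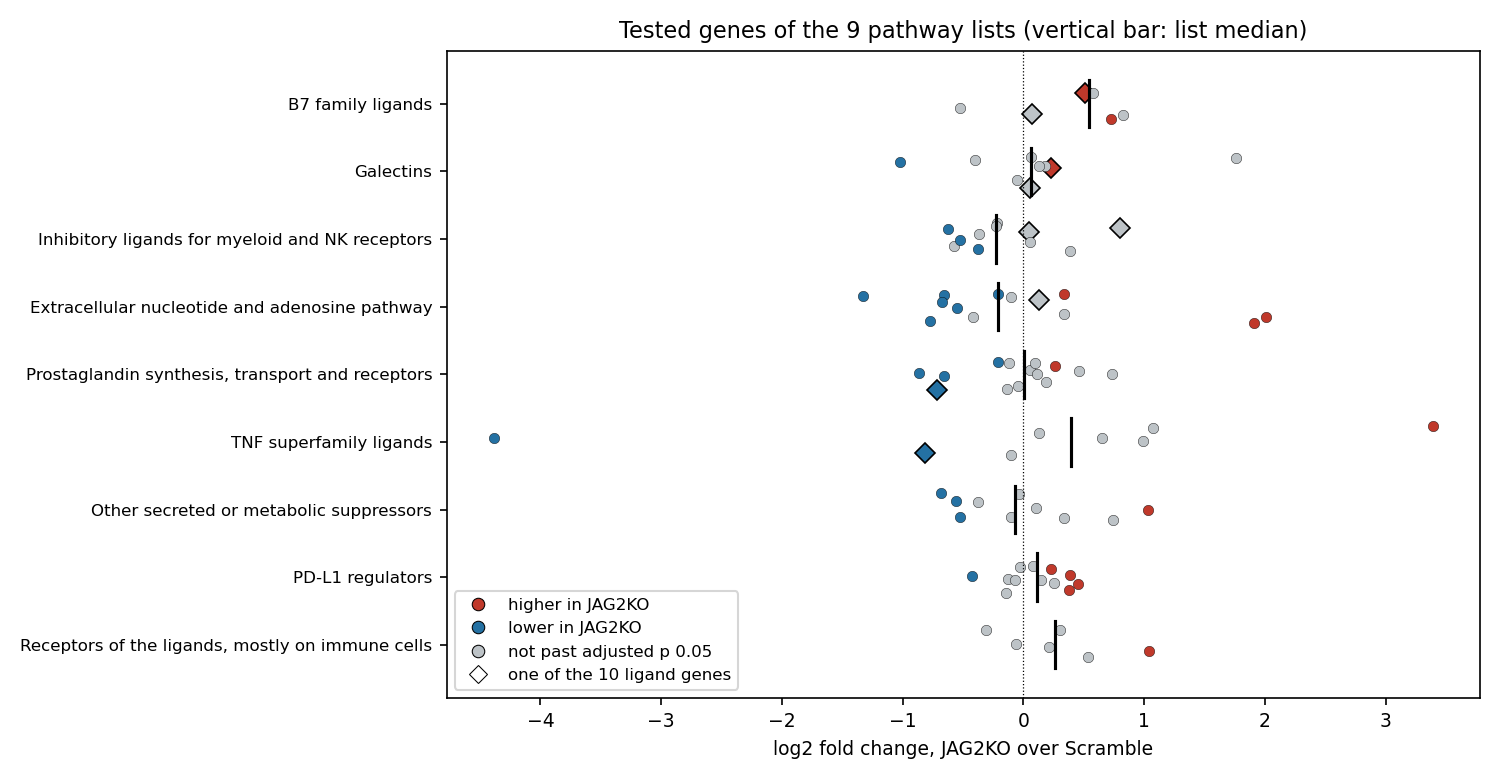
Log2 fold changes (JAG2KO over Scramble) of the tested genes of 9 pathway lists, 1 point per gene, with the 10 ligand genes as diamonds, calls in colour and each list's median as a vertical bar. Points spread to both sides of 0 in every list, and the farthest are Tnfsf11 at -4.39 and Tnf at 3.39, both of the TNF superfamily.

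Further secreted or metabolic suppressors gave calls in both directions. Of 10 tested suppressor genes, 1 was higher, 3 lower and 6 without a call, and without JagKO2 the higher count was 2 and without JagKO4 or Scramble replicate 2 it was 0. The higher gene, Tgfb2, and the lower gene Tgfb3 both encode TGF-beta isoforms. Tgfb2, singled out after its value was seen, rose to 7.19 ± 2.5 CPM in JAG2KO, against 3.52 ± 0.893 CPM in Scramble (log2 fold change 1.03, edgeR adjusted p = 0.0154). Tgfb3 fell to 33.3 ± 3.31 CPM in JAG2KO, against 53.4 ± 3.51 CPM in Scramble (log2 fold change -0.68, edgeR adjusted p = 0.000215). Spp1, the gene for osteopontin, fell to 662 ± 70.9 CPM in JAG2KO, against 954 ± 104 CPM in Scramble (log2 fold change -0.53, edgeR adjusted p = 0.00149). Nos2, the inducible nitric oxide synthase gene and a near neighbour of Lgals9, fell to 33.1 ± 5.8 CPM in JAG2KO, against 48.6 ± 1.57 CPM in Scramble (log2 fold change -0.56, edgeR adjusted p = 0.00344). Of 12 genes for receptors of the ligands, 6 were tested, 1 was higher, 0 lower and 5 without a call. The gene that passed, Lag3, an inhibitory receptor gene of T cells, had 2.27, 6.28 and 5.8 CPM in JagKO2, JagKO3 and JagKO4, against 2.54, 2.36 and 2.06 CPM in Scramble replicates 1, 2 and 3, so JagKO2 lay among the Scramble values. Its log2 fold change was 1.04 (edgeR adjusted p = 0.0365), and the call ended with limma-voom and without any 1 library other than JagKO2 (adjusted p = 0.0798 to 0.133). T and NK cell markers summed to 1.65 ± 0.99 CPM in JAG2KO and 1.26 ± 0.263 CPM in Scramble.

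Genes around each ligand gene were read to see whether the surrounding segment moved with it. The background is again 11.8% higher and 12.5% lower among all tested genes. Around Ptgs2, 1 of 20 tested neighbours was higher, 2 lower and 17 without a call. The neighbours' median log2 fold change was -0.13, against -0.71 for Ptgs2. That median was close to the -0.10 of chromosome 1 as a whole, where 87 of 999 other tested genes were higher and 165 lower. The lower neighbours were Pla2g4a, 139 kb away, and the noncoding gene Ptgs2os2 on the other side (log2 fold change -1.12, edgeR adjusted p = 0.00062), which was singled out after its value was seen. Around Tnfsf9, 2 were higher and 3 lower (median 0.12), around Cd276 2 were higher and 2 lower (median 0.10), and around Lgals9 3 were higher and 3 lower (median -0.05). Around Lgals1, 2 were higher and 1 lower, and around Nt5e 1 was higher and 1 lower. Around Cd47, 0 were higher and 4 lower, around Cd200 0 and 3, and around Pdcd1lg2 1 and 6. Around Cd274 1 neighbour was higher and 6 lower, Jak2 among them, with a median log2 fold change of -0.13, close to the -0.14 of chromosome 19 as a whole, where 37 of 561 other tested genes were higher and 131 lower. Cd274 itself, at 0.07, lay among the neighbours that did not pass.

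**Figure D4:**
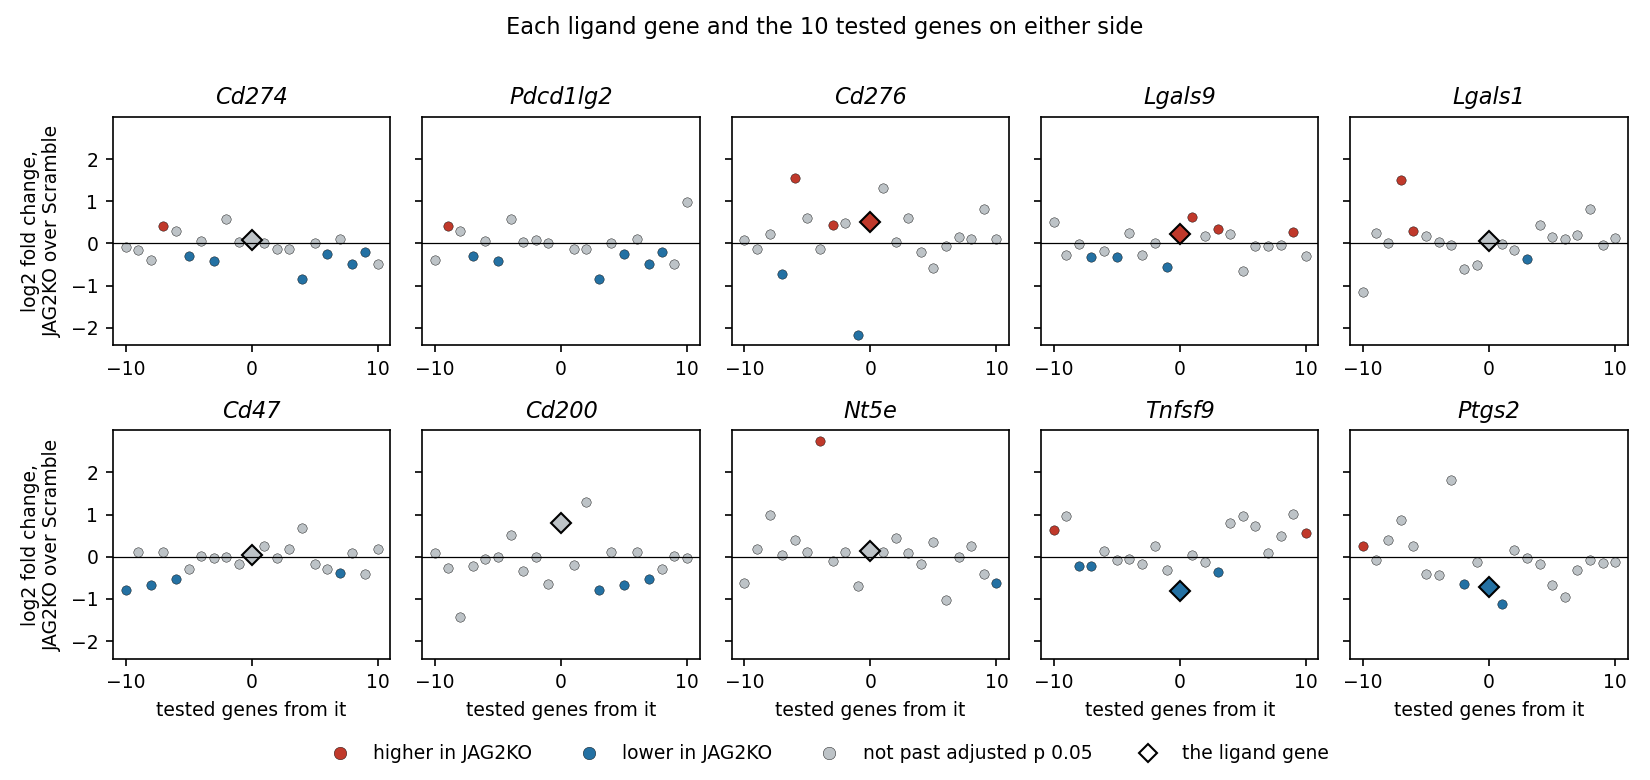
Log2 fold change (JAG2KO over Scramble) of each ligand gene at position 0 (diamond, none for the untested Pdcd1lg2) and of the 10 tested genes on either side in chromosome order, coloured by call. Calls of both signs are scattered around Cd276, Lgals9 and Tnfsf9, and the genes called lower near Ptgs2 stand within 2 places of it.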

How the data were processed

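The authors deposited a table of whole-number read counts for 6 libraries of polyA RNA, 3 of JAG2KO and 3 of Scramble cells. Per the submitters' processing notes, STAR 2.7.7a and HTSeq 0.11.2 were used. No build, annotation release or strand setting is named in the sources used here, so overlapping or near-identical genes can share reads. By stable ID, 55154 of 55334 gene IDs matched a symbol. Coordinates and exon lengths come from GENCODE M21 (GRCm38), which the authors may not have used. The JAG2KO columns carry the numbers 2 to 4 where the titles have 1 to 3, so they were used by group.

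The test was edgeR 4.0.16 in R 4.3.3, with filterByExpr (minimum count 10, minimum total 15), TMM factors and the quasi-likelihood F test (4 residual degrees of freedom). Its p-values were adjusted by Benjamini-Hochberg over all tested genes. A standard error is the log2 fold change over the square root of F. CPM errors are SDs (n = 3). Other settings were RLE factors, library totals without factors, no filter, CPM of at least 1 in 3 libraries, DESeq2 1.42.0, limma-voom (limma 3.58.1) and each library left out. Pairs of libraries within a group differed well beyond sampling noise (chi-square per degree of freedom 12.2 to 31), so all were kept as separate. Depth limits low genes, since 3 counts were worth 0.068 to 0.0811 CPM.

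The members, lists and tests were chosen with earlier results of these data known. The text names the 10 members, Jag2, up to 3 called genes with the smallest p from each pathway list and, chosen after their values were seen, a few further genes. On simulated data (JAG2KO against Scramble, 5 draws, 200 changed genes among 15667 to 15701), the test found 51% of genes changed 1.5-fold, 70.8% of those changed 2-fold and 85.7% of those changed 4-fold, and unchanged genes made up 8.82% of calls. The simulation changed a far smaller share of genes than the 24.3% called in the real data, so these rates need not hold there. A planned comparison of proteins was not made.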

Additional observations from a re-analysis of the deposited data

How the results depend on the processing

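Under the alternatives, 96 of 108 values of single ligand genes kept their direction and their side of the threshold. Cd276, Tnfsf9 and Ptgs2 kept their calls in all of them. Lgals9 lost its call when any 1 library was left out (log2 fold change 0.18 to 0.27), and in each of those fits 1 ligand gene was called higher, while RLE factors, library totals, both filters, DESeq2 and limma-voom kept 2 higher and 2 lower. The direction of 4 uncalled genes turned when 1 library was left out. Cd274 had a log2 fold change of -0.15 without JagKO2 and -0.057 without Scramble replicate 3 (range over left-out libraries -0.15 to 0.29), and Lgals1 had -0.048 without Scramble replicate 1 (range -0.048 to 0.13). Cd47 had -0.038 without Scramble replicate 3 (range -0.038 to 0.14), and Nt5e -0.057 without JagKO4 and -0.065 without Scramble replicate 3 (range -0.065 to 0.36). The cause was not tested. Fewer libraries also leave fewer residual degrees of freedom. Counts of calls in the pathway lists moved by over 1.5 times in 26 of 216 cases, and in 24 of 239 cases a named pathway gene lost its call, with 0 turning direction. Pdcd1lg2, with 10 counts over JAG2KO and 4 over Scramble, lay under the low-count filter. No paired analysis was possible because the deposited JAG2KO columns carry no replicate number of the labels.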
